A study of Homo sapiens with 6 samples.

Results

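Messenger RNA of 10 genes for the synthesis, storage, reuptake and breakdown of catecholamines was followed in SK-N-BE(2), a cell line from a human neuroblastoma whose MYCN gene is amplified. The genes were TH, GCH1, DDC and DBH for synthesis, SLC18A1, SLC18A2, CHGA and CHGB for storage, SLC6A2 for reuptake and MAOA for breakdown. They were listed by name for these roles, with earlier results of these data known, and each name matched exactly 1 of the 64252 rows of the deposited count table. All 10 passed the filter on low counts, which kept 18734 genes for testing. Cells carried shBCAT1#2, shBCAT1#1 or shControl, with 2 libraries for each hairpin. By transfection, shBCAT1#2 and shBCAT1#1 cells received different short hairpin RNAs against BCAT1, the cytosolic transaminase of branched-chain amino acids, and shControl cells received a control hairpin that one label field calls shNC. The labels give no other treatment, time point or clone for any group, and all 3 groups share the same parent line. The series title concerns BCAT1 and the stability of N-Myc in neuroblastoma with amplified MYCN, and the libraries hold the transcript side of that question.

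Catecholamines are made in sympathetic neurons, in chromaffin cells and in the neuroblastomas that arise from their lineage. Tyrosine hydroxylase (TH) turns tyrosine into DOPA with the cofactor tetrahydrobiopterin, whose synthesis starts with GTP cyclohydrolase (GCH1). Aromatic amino acid decarboxylase (DDC) then makes dopamine, which the vesicular transporters SLC18A1 and SLC18A2 carry into vesicles, where dopamine beta-hydroxylase (DBH) turns it into noradrenaline. The granins CHGA and CHGB pack the dense core of the vesicle, the noradrenaline transporter SLC6A2 takes released noradrenaline back up, and monoamine oxidase A (MAOA) breaks it down.

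RefSeq promoter windows, 250 bases before to 50 bases from the annotated start (build GRCh38.p14), were used for 4 of the 10 genes, DDC, SLC18A2, CHGA and MAOA, with 2 windows for DDC, so 5 windows were searched. One window of each gene is shown: CHGA mRNA differed between the BCAT1 hairpins, whereas no difference between the hairpins passed the test for SLC18A2, DDC and MAOA. Capitals mark the cAMP response element (CRE), TGACGTCA, and every sequence runs 5′ to 3′ on the gene's own strand. The windows are CHGA chr14:92922900-92923199 (plus strand), SLC18A2 chr10:117240864-117241163 (plus strand), the downstream of the 2 DDC starts chr7:50561022-50561321 (minus strand) and MAOA chrX:43656049-43656348 (plus strand).
CHGA: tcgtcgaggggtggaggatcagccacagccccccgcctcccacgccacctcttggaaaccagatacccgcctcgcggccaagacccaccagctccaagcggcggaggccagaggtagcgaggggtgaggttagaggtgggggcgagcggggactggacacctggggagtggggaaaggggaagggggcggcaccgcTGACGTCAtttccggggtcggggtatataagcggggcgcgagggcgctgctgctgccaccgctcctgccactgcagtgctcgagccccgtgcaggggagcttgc
SLC18A2: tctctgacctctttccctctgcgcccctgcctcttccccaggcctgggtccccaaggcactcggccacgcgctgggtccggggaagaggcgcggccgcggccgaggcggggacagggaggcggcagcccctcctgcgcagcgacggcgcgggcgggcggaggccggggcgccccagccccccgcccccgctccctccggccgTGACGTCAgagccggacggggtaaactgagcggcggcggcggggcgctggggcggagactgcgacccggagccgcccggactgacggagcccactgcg
DDC: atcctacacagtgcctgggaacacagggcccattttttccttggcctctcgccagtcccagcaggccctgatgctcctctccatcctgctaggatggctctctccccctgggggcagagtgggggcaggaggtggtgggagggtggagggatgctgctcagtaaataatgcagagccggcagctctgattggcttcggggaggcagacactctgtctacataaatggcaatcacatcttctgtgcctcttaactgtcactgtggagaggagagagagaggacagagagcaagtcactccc
MAOA: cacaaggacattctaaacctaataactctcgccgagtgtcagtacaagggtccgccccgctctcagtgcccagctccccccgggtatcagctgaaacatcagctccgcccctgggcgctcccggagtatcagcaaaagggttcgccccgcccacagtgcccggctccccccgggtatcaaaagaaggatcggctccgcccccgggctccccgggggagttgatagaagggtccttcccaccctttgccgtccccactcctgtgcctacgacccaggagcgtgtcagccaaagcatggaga

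On both strands, the CRE was found in 2 of the 5 windows, those of CHGA, with its first base at -54 from the start, and of SLC18A2, at -48. Of 35116 RefSeq windows of the same length, 1.85% held it. The Sp1 box GGGCGG was present in 3 of the 5 windows (CHGA, and with several matches each SLC18A2 and MAOA), against 45.0% of all windows. Neither DDC window held any of these letters, and the E-box CACGTG, the homeodomain core TAATTA, the GATA box AGATAA and the TATA box TATAAA were in 0 of the 5 windows, against 7.26%, 4.84%, 10.3% and 11.5% of all windows in the order named. These matches describe letters and not binding. Only the exact letters were searched, so variants such as the tatataag of the CHGA window were not counted. The CRE thus stood in the window of a gene that differed between the hairpins and in that of one for which no such difference passed the test. The mRNA of SLC18A2 was near the limit of detection and that of CHGA was among the higher of the 10.

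**Figure D1:**
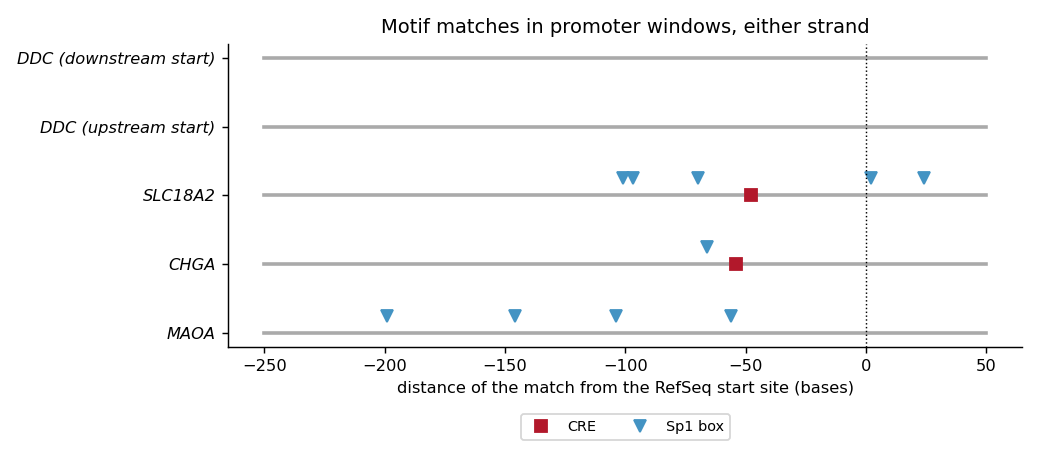
Matches to the searched motifs in the 5 RefSeq promoter windows, plotted by distance from the annotated start in bases (x axis), 1 row per window, with symbols for the motif. The CRE sits at -54 in CHGA and -48 in SLC18A2, and MAOA holds only Sp1 boxes.

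Library totals ran from 32333416 to 39321388 counts. Levels are given as CPM, counts per 1000000 counts of the library after TMM scaling, and differences as log2 fold changes with a standard error (SE). Every adjusted p is two-sided from edgeR's quasi-likelihood test with Benjamini-Hochberg adjustment over the 18734 genes, and a gene is said to have risen or fallen where it is under 0.05. BCAT1 was measured first as a check of the labels, and had 116 and 111 CPM with shBCAT1#2, 55.8 and 55.3 CPM with shBCAT1#1, and 459 and 475 CPM with shControl, so the knockdown libraries lay far below the controls. The log2 fold change of BCAT1 was -2.04 with shBCAT1#2 (SE 0.04, adjusted p = 1.3e-07) and -3.07 with shBCAT1#1 (SE 0.04, adjusted p = 1.8e-08), and the level with shBCAT1#2 was 1.03 higher on the log2 scale than with shBCAT1#1. Changes ran against GC content in every comparison: across genes (13907 that code for protein, not independent of each other) the Spearman correlation of log2 fold change with GC was -0.45 for shBCAT1#2, -0.30 for shBCAT1#1 and -0.13 between the hairpins. With exonic length it was 0.37 for shBCAT1#2, 0.29 for shBCAT1#1 and 0.06 between the hairpins. For the 10 genes, values after a correction for GC content and length are therefore given beside a result where they end or add a call. They are also given where they move a result that passed by over 1.5 times, and turns of sign are listed in the closing section. For BCAT1 and the genes of the related and marker lists, only values without the correction are given. Whether their calls and medians hold after it was not tested. Other log2 fold changes of the 10 genes that passed moved less. Among them were DBH (-0.99 with shBCAT1#2 and 1.27 with shBCAT1#1 after the correction), CHGA with shBCAT1#2 (-1.43) and DDC (-0.40 with shBCAT1#2 and -0.36 with shBCAT1#1). Some that did not pass moved by more, such as SLC6A2 with shBCAT1#2 (-0.12 before and -0.02 after the correction) and MAOA with shBCAT1#1 (0.08 before and 0.03 after). Of the 18734 genes, 9236 passed with shBCAT1#2, 9199 with shBCAT1#1 and 8650 between the hairpins, so the share called over all genes stands beside each count of the 10.

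With shBCAT1#2, 6 of the 10 genes fell, where 25.4% of all tested genes fell. None rose: 0 of 10 passed upward by edgeR, 0 at an unadjusted p under 0.05, and 0 by DESeq2 or limma-voom, where 23.9% of all tested genes rose. With shBCAT1#1, 6 of the 10 genes rose and 2 fell, where 24.2% of all tested genes rose and 24.9% fell. The median log2 fold change of the 10 genes was -0.52 with shBCAT1#2 and 0.62 with shBCAT1#1, beside -0.01 over all genes in each comparison. Where a fold of at least 1.5 was asked for, 3 of the 10 fell with shBCAT1#2 (CHGA, DBH and CHGB), where 3.46% of all tested genes fell. At that fold 4 rose with shBCAT1#1 (SLC6A2, CHGB, DBH and GCH1), where 4.61% of all tested genes rose, and DDC and CHGA no longer passed as lower, where 4.84% of all tested genes fell. Both comparisons use the same shControl libraries, so they are set side by side and not correlated. In bulk RNA, fewer cells of a type and less RNA per cell cannot be told apart.

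**Figure D2:**
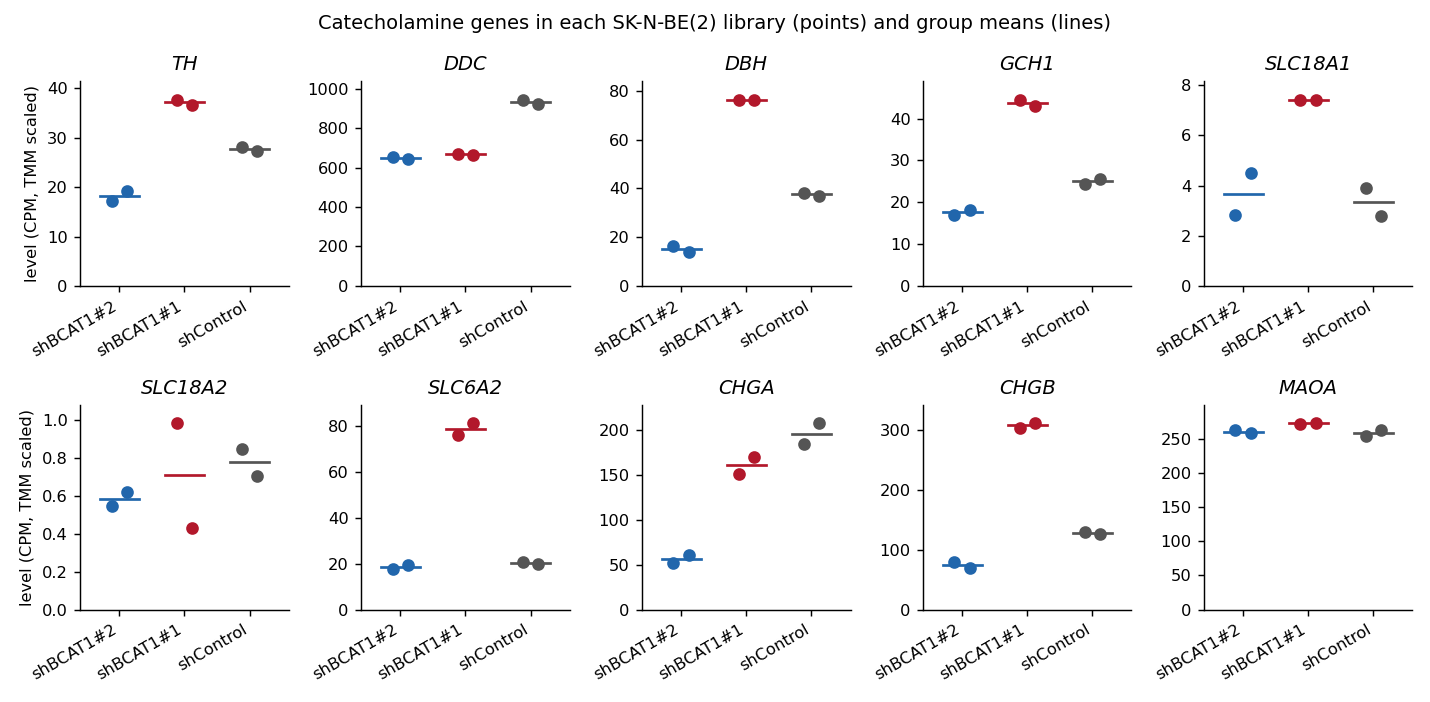
Level of each of the 10 genes in CPM (y axes, linear from 0, a scale per gene) in the shBCAT1#2, shBCAT1#1 and shControl libraries, where points are libraries and lines are group means. DBH, CHGB, GCH1 and TH lie lowest with shBCAT1#2 and highest with shBCAT1#1, while all MAOA points lie between 254 and 273 CPM.

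Among the synthesis genes, TH, GCH1 and DBH fell with shBCAT1#2 and rose with shBCAT1#1, while DDC fell with both hairpins. TH (ENSG00000180176; chromosome 11, 2163929 to 2171877, minus strand, hg38) had 17.1 and 19.3 CPM with shBCAT1#2, 37.7 and 36.7 CPM with shBCAT1#1, and 28.2 and 27.3 CPM with shControl. The 3 groups did not overlap, with the controls in the middle. TH was 1.52-fold lower than control with shBCAT1#2 (log2 fold change -0.61, SE 0.08, adjusted p = 0.00032) and 1.34-fold higher with shBCAT1#1 (0.42, SE 0.08, adjusted p = 0.0022). TH has the highest GC content of the 10 transcripts, 66.1%, and after the GC and length correction the log2 fold changes were -0.25 with shBCAT1#2 (adjusted p = 0.020) and 0.74 with shBCAT1#1 (adjusted p = 1.4e-05), still of opposite sign.

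GCH1, the entry enzyme of the TH cofactor pathway (ENSG00000131979; chromosome 14, 54842008 to 54902852, minus strand), had 17.0 and 18.1 CPM with shBCAT1#2, 44.5 and 43.0 CPM with shBCAT1#1, and 24.3 and 25.6 CPM with shControl. As for TH, the groups did not overlap and the controls lay between the hairpins. The log2 fold change of GCH1 was -0.51 with shBCAT1#2 (SE 0.07, adjusted p = 0.00052) and 0.81 with shBCAT1#1 (SE 0.07, adjusted p = 3.0e-05). DBH, the vesicular enzyme that makes noradrenaline from dopamine (ENSG00000123454; chromosome 9, 133635348 to 133659344, plus strand), showed the same order of groups with wider gaps. It had 16.5 and 13.7 CPM with shBCAT1#2, 76.4 and 76.3 CPM with shBCAT1#1, and 38.2 and 36.9 CPM with shControl. DBH was 2.48-fold lower than control with shBCAT1#2 (-1.31 on the log2 scale, SE 0.08, adjusted p = 9.1e-06) and 2.03-fold higher with shBCAT1#1 (1.02, SE 0.08, adjusted p = 1.6e-05). DBH shares 118 exonic bases, 3.13% of its exons, with the antisense gene DBH-AS1, which had 54 to 118 counts per library against 535 to 2962 for DBH.

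DDC, the decarboxylase shared by the dopamine and serotonin pathways (ENSG00000132437; chromosome 7, 50458436 to 50565457, minus strand), was the most abundant of the 10. It had 656 and 643 CPM with shBCAT1#2, 671 and 667 CPM with shBCAT1#1, and 946 and 922 CPM with shControl, so all 4 knockdown libraries lay below both controls and close to each other. Its log2 fold change was -0.52 with shBCAT1#2 (SE 0.04, adjusted p = 1.4e-05) and -0.48 with shBCAT1#1 (SE 0.04, adjusted p = 1.6e-05).

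Among the storage genes, the granins had far higher counts than the transporters, and CHGA and CHGB did not follow the same pattern. CHGA (ENSG00000100604; chromosome 14, 92923080 to 92935293, plus strand), the dense core protein widely used as a neuroendocrine marker, had 52.1 and 60.4 CPM with shBCAT1#2, 150 and 170 CPM with shBCAT1#1, and 184 and 207 CPM with shControl. Both shBCAT1#2 libraries lay far below all others, and the shBCAT1#1 libraries lay just below the controls. CHGA was 3.48-fold lower than control with shBCAT1#2 (log2 fold change -1.80, SE 0.09, adjusted p = 3.6e-06), the largest fall among the 10. With shBCAT1#1 it was 1.22-fold lower (-0.29, SE 0.09, adjusted p = 0.023), and this call was lost without shBCAT1#1 replicate 1 (-0.20, adjusted p = 0.13), without shControl replicate 2 (-0.20, adjusted p = 0.12) and after the GC and length correction (0.01, adjusted p = 0.93). The transcript has 62.4% GC.

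CHGB, the second granin (ENSG00000089199; chromosome 20, 5911430 to 5925361, plus strand), had 79.2 and 69.0 CPM with shBCAT1#2, 304 and 311 CPM with shBCAT1#1, and 129 and 126 CPM with shControl. Here the controls lay between the hairpins, as for TH, GCH1 and DBH. CHGB was 1.72-fold lower than control with shBCAT1#2 (log2 fold change -0.78, SE 0.06, adjusted p = 2.4e-05) and 2.41-fold higher with shBCAT1#1 (1.27, SE 0.06, adjusted p = 1.6e-06).

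SLC18A1, the vesicular transporter typical of chromaffin cells (ENSG00000036565; chromosome 8, 20144855 to 20183206, minus strand), had 2.82 and 4.50 CPM with shBCAT1#2, 7.40 and 7.43 CPM with shBCAT1#1, and 3.89 and 2.78 CPM with shControl. These levels rest on 114 and 175 counts with shBCAT1#2, 287 and 241 with shBCAT1#1, and 147 and 103 with shControl. The shBCAT1#1 libraries lay above all others, and the shBCAT1#2 and shControl libraries overlapped. SLC18A1 was 2.22-fold higher than control with shBCAT1#1 (log2 fold change 1.15, SE 0.24, adjusted p = 0.0038), whereas with shBCAT1#2 the log2 fold change was 0.13 with a 95% interval of -0.42 to 0.68 (adjusted p = 0.68).

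SLC18A2, the vesicular transporter typical of monoamine neurons (ENSG00000165646; chromosome 10, 117241073 to 117279430, plus strand), was near the limit of detection, with 22 and 24 counts with shBCAT1#2, 38 and 14 with shBCAT1#1, and 32 and 26 with shControl. Levels were 0.545 and 0.617 CPM with shBCAT1#2, 0.980 and 0.431 CPM with shBCAT1#1, and 0.846 and 0.702 CPM with shControl, and the shBCAT1#1 replicates spanned the range of all other libraries. No difference of SLC18A2 was detectable at this depth. The log2 fold change was -0.41 with shBCAT1#2 (SE 0.42, adjusted p = 0.44) and -0.11 with shBCAT1#1 (SE 0.41, adjusted p = 0.84). It also shares 2157 exonic bases, 52.0% of its exons, with PDZD8 on the opposite strand, which had 2361 to 3352 counts per library, and whether counting used strand is not given in the sources used here.

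SLC6A2, the noradrenaline transporter of the cell surface (ENSG00000103546; chromosome 16, 55655604 to 55706192, plus strand), had 17.6 and 19.5 CPM with shBCAT1#2, 76.0 and 81.0 CPM with shBCAT1#1, and 20.7 and 19.8 CPM with shControl. The shBCAT1#1 libraries lay far above the other 4, and the shBCAT1#2 libraries lay just below the controls. SLC6A2 was 3.88-fold higher than control with shBCAT1#1 (log2 fold change 1.95, SE 0.07, adjusted p = 6.1e-07), the largest rise among the 10. With shBCAT1#2 the log2 fold change was -0.12, with a 95% interval of -0.30 to 0.05 (adjusted p = 0.20). A same-strand gene, AC136621.1, shares 977 of its exonic bases (17.9%) and had 143 to 624 counts per library, so reads could be split between them.

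MAOA, the mitochondrial enzyme that degrades noradrenaline and serotonin (ENSG00000189221; chromosome X, 43654907 to 43746824, plus strand), had 263 and 258 CPM with shBCAT1#2, 272 and 273 CPM with shBCAT1#1, and 254 and 262 CPM with shControl. All 6 libraries lay within a narrow band. The log2 fold change was 0.01 with shBCAT1#2 (95% interval -0.08 to 0.10, adjusted p = 0.81) and 0.08 with shBCAT1#1 (95% interval -0.01 to 0.17, adjusted p = 0.13).

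**Figure D3:**
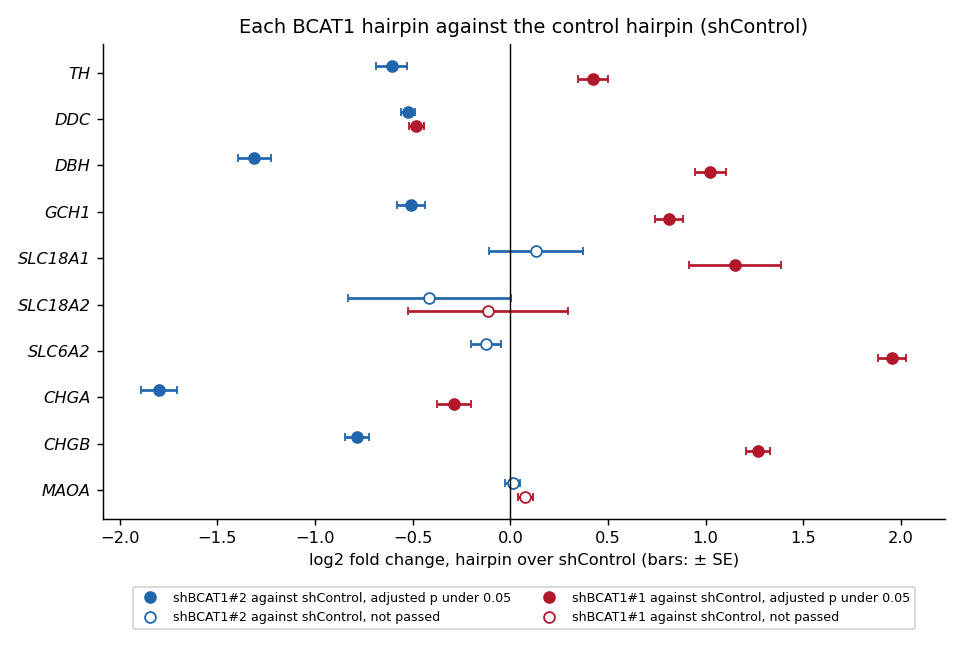
Log2 fold change over shControl (x axis, points with bars of ± SE) for each of the 10 genes with shBCAT1#2 (blue) and shBCAT1#1 (red), n = 2 libraries per group; filled points have an adjusted p under 0.05. TH, DBH, GCH1 and CHGB lie on opposite sides of 0, DDC lies at -0.52 with shBCAT1#2 and -0.48 with shBCAT1#1, and MAOA lies near 0 with each.

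The difference between the hairpins was tested directly. With shBCAT1#2, 7 of the 10 genes were lower than with shBCAT1#1, where 23.3% of all tested genes were lower. None was higher (0 of 10 by edgeR, 0 at an unadjusted p under 0.05, and 0 by DESeq2 or limma-voom), where 22.9% of all tested genes were higher. The median log2 difference of the 10 was -1.18, beside 0.01 over all genes, and the median size without sign was 1.18, beside 0.34. DBH differed most (5.04-fold lower with shBCAT1#2, log2 difference -2.33, SE 0.08, adjusted p = 3.5e-07), followed by SLC6A2 (4.23-fold, -2.08, SE 0.07, adjusted p = 3.3e-07) and CHGB (4.14-fold, -2.05, SE 0.06, adjusted p = 2.0e-07). CHGA was 2.85-fold lower (-1.51, SE 0.09), GCH1 2.49-fold lower (-1.32, SE 0.07), TH 2.04-fold lower (-1.03, SE 0.08) and SLC18A1 2.03-fold lower (-1.02, SE 0.23, adjusted p = 0.0073). Where a fold of at least 1.5 was asked for, 6 of these 7 passed and SLC18A1 did not (adjusted p = 0.13), where 4.36% of all tested genes were lower. In all 7 of these genes both shBCAT1#2 libraries lay below both shBCAT1#1 libraries.

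For the other 3 genes no difference between the hairpins passed the test. The log2 difference was -0.04 for DDC (95% interval -0.13 to 0.04, adjusted p = 0.39), -0.06 for MAOA (95% interval -0.15 to 0.02, adjusted p = 0.21) and -0.30 for SLC18A2 (95% interval -1.26 to 0.66, adjusted p = 0.60). The intervals of DDC and MAOA are narrow and that of SLC18A2 is wide. After the GC and length correction the MAOA difference was -0.10 and passed (adjusted p = 0.041), so 8 genes were then lower. The corrected fit called 8327 of its 13907 genes between the hairpins, in either direction. Without the correction 7618 of the same genes were called. With a term for the replicate number added to that correction, the MAOA difference did not pass. BCAT1 itself was lower with shBCAT1#1 than with shBCAT1#2, and its part in the difference between the hairpins was not tested.

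**Figure D4:**
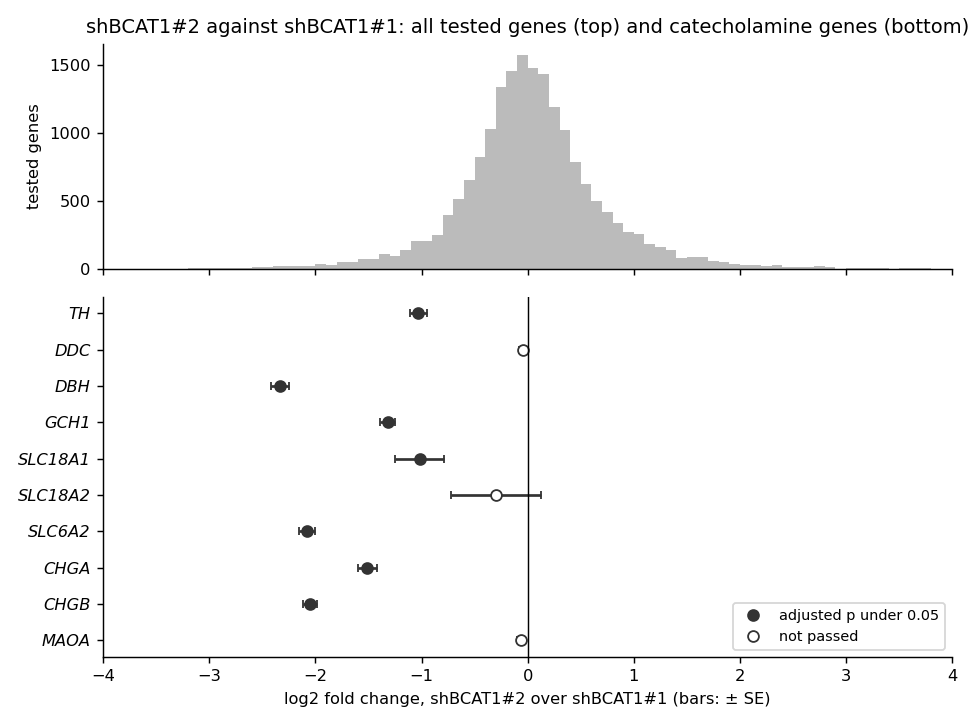
Top, the number of tested genes (y axis) by log2 fold change of shBCAT1#2 over shBCAT1#1 (x axis); 58 genes beyond ±4 are not drawn. Bottom, the same quantity for the 10 genes with bars of ± SE, n = 2 libraries per hairpin; DBH, SLC6A2 and CHGB lie beyond -2 while DDC and MAOA lie at -0.04 and -0.06.

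Averaged over both hairpins against shControl, 3 of the 10 genes rose and 2 fell, where 23.6% of all tested genes rose and 26.4% fell. Those that rose were SLC6A2 (log2 fold change 0.91, adjusted p = 1.2e-05), CHGB (0.24, adjusted p = 0.0056) and SLC18A1 (0.64, adjusted p = 0.033), and those that fell were CHGA (-1.04, adjusted p = 1.1e-05) and DDC (-0.50, adjusted p = 7.2e-06). At a fold of at least 1.5, only SLC6A2 passed as higher and only CHGA as lower among the 10, where 2.83% of all tested genes rose and 2.71% fell. Of these 5, DDC fell by similar amounts with each hairpin (-0.52 with shBCAT1#2 and -0.48 with shBCAT1#1), whereas the other 4 differed between the hairpins. The average is -0.14 for DBH (adjusted p = 0.12), -0.09 for TH (adjusted p = 0.30) and 0.15 for GCH1 (adjusted p = 0.075), though each of these passed in opposite directions with the single hairpins. The SLC18A1 call was lost when any of 4 single libraries was left out: shBCAT1#2 replicate 2 (0.46, adjusted p = 0.073), shBCAT1#1 replicate 1 (0.64, adjusted p = 0.061), shBCAT1#1 replicate 2 (0.65, adjusted p = 0.058) or shControl replicate 2 (0.42, adjusted p = 0.21). Without shBCAT1#2 replicate 1 the DBH average passed (-0.22, adjusted p = 0.013), and after the GC and length correction the TH average was 0.25 (adjusted p = 0.0093).

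Levels were compared between genes per kilobase of exon. With shBCAT1#2 the order in mean CPM per kilobase was DDC at 207, MAOA at 47.1, CHGA at 18.1, CHGB at 16.3, GCH1 at 5.95, TH at 5.61, DBH at 4.01, SLC6A2 at 3.40, SLC18A1 at 0.936 and SLC18A2 at 0.140. With shBCAT1#1 it was DDC at 213, CHGB at 67.7, CHGA at 51.7, MAOA at 49.3, DBH at 20.2, GCH1 at 14.8, SLC6A2 at 14.4, TH at 11.5, SLC18A1 at 1.90 and SLC18A2 at 0.170. With shControl it was DDC at 298, CHGA at 63.1, MAOA at 46.7, CHGB at 28.1, DBH at 9.95, TH at 8.56, GCH1 at 8.46, SLC6A2 at 3.71, SLC18A1 at 0.853 and SLC18A2 at 0.187. The libraries of neighbours in the order overlapped for CHGA and CHGB and for GCH1 and TH with shBCAT1#2, for CHGA and MAOA and for GCH1 and SLC6A2 with shBCAT1#1, and for TH and GCH1 with shControl. DDC led and the vesicular transporters came last in every group, while DBH stood above TH and GCH1 with shBCAT1#1 and shControl and below both with shBCAT1#2. In level, summed CPM of the 10 genes was 1122 and 1106 with shBCAT1#2, 1640 and 1665 with shBCAT1#1, and 1629 and 1630 with shControl, and DDC made up the largest share in every library.

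For the 6 genes that passed with each hairpin alone, the 2 genes of most similar pattern were found among 10991 candidates by the distance of log2 CPM, centred on shControl, over the 6 libraries. They were DPH2 (distance 0.107) and DCTN5 (0.131) for TH, SLAIN2 (0.0878) and GINS1 (0.143) for GCH1, NPEPL1 (0.0614) and UBE2S (0.0642) for DDC, EPHB1 (0.376) and MMP1 (0.456) for DBH, FAM162A (0.294) and SDC3 (0.310) for CHGA, and SEZ6 (0.113) and TNFAIP3 (0.196) for CHGB. Thus SEZ6 had log2 fold changes of -0.81 with shBCAT1#2 and 1.34 with shBCAT1#1, beside -0.78 with shBCAT1#2 and 1.27 with shBCAT1#1 for CHGB. DBH had no neighbour as close as those of TH, GCH1, DDC or CHGB.

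The other enzymes of the tetrahydrobiopterin cofactor were measured as 6 genes beside GCH1. Counts in this and the other related lists stand against all tested genes, of which 23.9% rose and 25.4% fell with shBCAT1#2, 24.2% rose and 24.9% fell with shBCAT1#1, and 22.9% were higher and 23.3% lower between the hairpins. With shBCAT1#2, 2 of the 6 fell and 4 did not pass, and with shBCAT1#1, 1 rose, 2 fell and 3 did not pass. QDPR, which regenerates the cofactor, had 107 and 110 CPM with shBCAT1#2, 114 and 118 CPM with shBCAT1#1, and 155 and 142 CPM with shControl, and fell with both hairpins (log2 fold change -0.46 with shBCAT1#2, adjusted p = 0.00013, and -0.36 with shBCAT1#1, adjusted p = 0.00050). PTS, the synthase after GCH1, had log2 fold changes of -0.18 with shBCAT1#2 (adjusted p = 0.066) and -0.23 with shBCAT1#1 (adjusted p = 0.031). GCHFR, the feedback regulator of GCH1, rose with shBCAT1#1 (1.20, adjusted p = 0.0050) at 1.16 to 2.87 CPM, but shares 75.2% of its exons with DNAJC17 on the opposite strand. Between the hairpins 4 of the 6 were lower with shBCAT1#2. The list's median was -0.24 with shBCAT1#2 and -0.01 with shBCAT1#1. PNMT, which makes adrenaline, and the tryptophan hydroxylases TPH1 and TPH2 did not pass the filter, with TPH2 at 0 counts in all 6 libraries and PNMT at 0.0516 to 0.370 CPM.

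Of 8 other breakdown enzymes, 6 were tested. With shBCAT1#2, 2 rose and 2 fell (median -0.08), and with shBCAT1#1, 2 rose and 3 fell (median -0.18). ALDH3A2, an aldehyde dehydrogenase, rose with both (log2 fold change 0.36 with shBCAT1#2 and 0.41 with shBCAT1#1), and AKR1B1, an aldose reductase, fell with both (-0.53 with shBCAT1#2 and -0.28 with shBCAT1#1). MAOB, the sister enzyme of MAOA, did not pass the filter.

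Among 8 other transporters, 5 were tested, of which 3 fell with shBCAT1#2 (median -0.26) and 2 rose and 1 fell with shBCAT1#1 (median 0.41). SLC18A3, the vesicular acetylcholine transporter and a relative of SLC18A1, had 6.96 and 7.19 CPM with shBCAT1#2, 36.5 and 36.5 CPM with shBCAT1#1, and 29.2 and 25.5 CPM with shControl. Its difference between the hairpins was -2.37 on the log2 scale (SLC18A3, adjusted p = 4.8e-07). SLC29A4, a low-affinity monoamine transporter, fell with both hairpins (log2 fold change -0.55 with shBCAT1#2 and -0.63 with shBCAT1#1).

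Dense core vesicle proteins other than the granins CHGA and CHGB were measured through 27 genes, of which 25 were tested. With shBCAT1#2, 7 rose and 11 fell (median -0.28), where 23.9% of all tested genes rose and 25.4% fell. With shBCAT1#1, 15 rose and 4 fell (median 0.73), where 24.2% of all tested genes rose and 24.9% fell. Between the hairpins 16 of the 25 were lower with shBCAT1#2 and 3 were higher (median -0.67), beside a median of 0.01 over all genes. SYT4, a synaptotagmin of vesicle membranes, had 12.1 and 11.8 CPM with shBCAT1#2, 73.0 and 74.1 CPM with shBCAT1#1, and 15.4 and 14.7 CPM with shControl, a difference between the hairpins of -2.62 (adjusted p = 1.2e-07). UNC13A, a priming factor of vesicle release, rose with shBCAT1#1 (log2 fold change 1.35, adjusted p = 2.5e-07) and had a log2 fold change of 0.03 with shBCAT1#2 (adjusted p = 0.49). SV2C, a vesicle membrane glycoprotein, rose with both hairpins (1.09 with shBCAT1#2, adjusted p = 1.4e-06, and 1.24 with shBCAT1#1, adjusted p = 4.5e-07). The secretogranin SCG2, chosen after its values were seen, fell with shBCAT1#2 (-0.55) and rose with shBCAT1#1 (0.62), as CHGB did. The secretogranins SCG3 and SCG5 and the secreted protein VGF, on the same list, did not share this pattern. SCG3 had -0.01 with shBCAT1#2 (adjusted p = 0.85) and 1.02 with shBCAT1#1. VGF fell with both (-0.53 with shBCAT1#2 and -0.37 with shBCAT1#1), and SCG5 passed with neither.

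Transcription factors of noradrenergic cells were measured through 12 genes, of which 10 were tested. With shBCAT1#2, 1 rose and 7 fell (median -0.25), where 23.9% of all tested genes rose and 25.4% fell. With shBCAT1#1, 4 rose and 4 fell (median -0.04), where 24.2% of all tested genes rose and 24.9% fell. PHOX2A, the homeodomain factor known to activate DBH, had 339 and 337 CPM with shBCAT1#2, 310 and 338 CPM with shBCAT1#1, and 572 and 525 CPM with shControl. It fell with both hairpins (log2 fold change -0.70 with shBCAT1#2 and -0.76 with shBCAT1#1), and its difference between them was 0.06 (adjusted p = 0.43), so DBH and PHOX2A mRNA did not share a direction with shBCAT1#1. TBX2, a T-box factor of the neuroblastoma core circuit, also fell with both (-0.28 with shBCAT1#2 and -0.38 with shBCAT1#1). INSM1 did not pass the filter.

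Regulators that act through the CRE and early response genes were all tested (14 of 14), and with shBCAT1#2, 3 rose and 4 fell (median -0.06), while with shBCAT1#1, 8 rose and 1 fell (median 0.31). CREB1, the factor that binds the CRE, rose with both (log2 fold change 0.45 with shBCAT1#2 and 0.41 with shBCAT1#1), and so did its coactivator CRTC3 (0.56 with shBCAT1#2 and 0.25 with shBCAT1#1). NR4A3, an orphan nuclear receptor induced by cAMP, rose with shBCAT1#1 (1.00, adjusted p = 6.3e-05) and had a log2 fold change of 0.23 with shBCAT1#2 (adjusted p = 0.095). REST, the repressor of neuronal genes that was also on this list and is named here after its values were seen, had 38.1 and 35.4 CPM with shBCAT1#2, 9.18 and 9.15 CPM with shBCAT1#1, and 17.0 and 20.5 CPM with shControl. REST rose with shBCAT1#2 (0.97, adjusted p = 9.2e-05), fell with shBCAT1#1 (-1.03, adjusted p = 8.1e-05) and differed by 2.00 between the hairpins (adjusted p = 2.3e-06), in each comparison on the side opposite to DBH, TH, GCH1 and CHGB. Its part in those differences was not tested.

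Receptors for catecholamines were mostly at low levels. Of 14 genes 6 were tested, and ADRB3, DRD3 and DRD5 had 0 counts in all 6 libraries. With shBCAT1#2, 1 of the 6 fell and 5 did not pass (median -0.19), and with shBCAT1#1, 3 rose and 1 fell (median 0.50). ADRA1B rose with shBCAT1#1 (log2 fold change 1.14, adjusted p = 0.043) at 0.463 to 1.39 CPM over all libraries. ADRA2A, an inhibitory autoreceptor, had 0.797 to 1.69 CPM, and no difference passed.

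**Figure D5:**
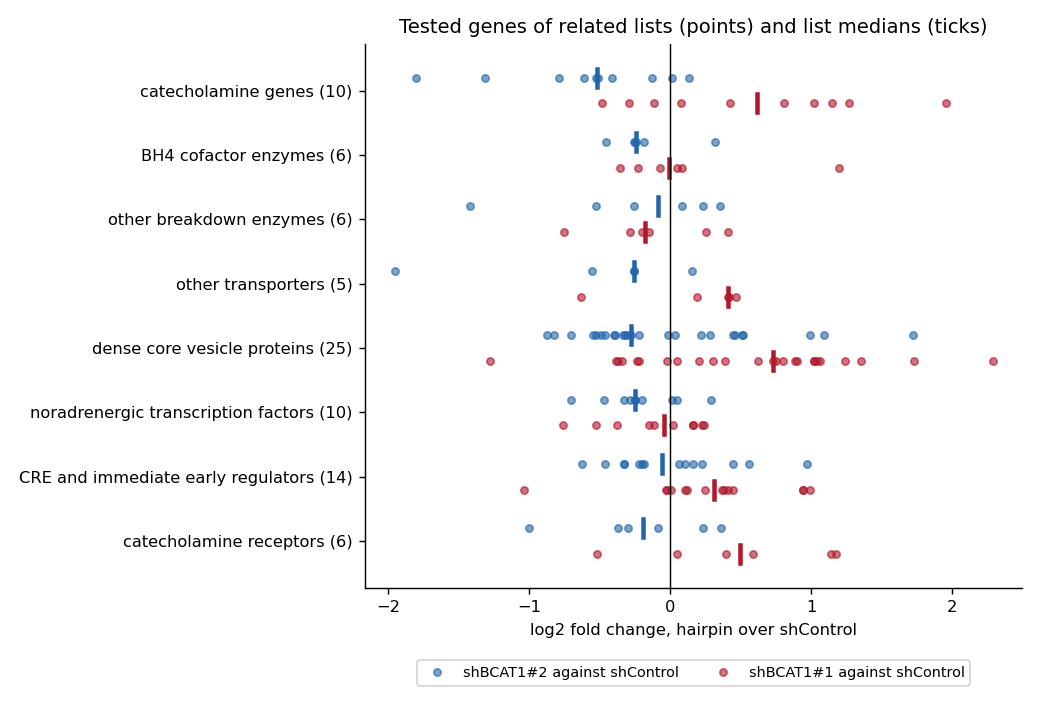
Log2 fold change over shControl (x axis) of the tested genes of the catecholamine set and of 7 related lists (rows, with the number tested), for shBCAT1#2 (blue) and shBCAT1#1 (red); points are genes and ticks are list medians. The median of the catecholamine genes is -0.52 with shBCAT1#2 and 0.62 with shBCAT1#1, and that of dense core vesicle proteins is -0.28 with shBCAT1#2 and 0.73 with shBCAT1#1.

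Marker lists were measured to see what else the cells expressed. The counts in this and the next paragraph stand against all tested genes, of which 23.9% rose and 25.4% fell with shBCAT1#2. With shBCAT1#1, 24.2% of all tested genes rose and 24.9% fell. Of 7 markers of the noradrenergic neuroblastoma state, 1 rose and 6 fell with shBCAT1#2 and 4 rose and 3 fell with shBCAT1#1; TH and DBH are among them. Their summed level was 1030 to 1038 CPM with shBCAT1#2, 1104 to 1161 CPM with shBCAT1#1 and 1310 to 1357 CPM with shControl. PHOX2A changed most in this sum, with means of 338 CPM with shBCAT1#2, 324 CPM with shBCAT1#1 and 548 CPM with shControl. GATA3 rose with both hairpins (log2 fold change 0.29 with shBCAT1#2 and 0.23 with shBCAT1#1). The cells are labelled as neuroblastoma cells, and all 7 of these markers were detected in every library. Of 9 mesenchymal markers, 1 rose and 4 fell with shBCAT1#2 and 3 rose and 3 fell with shBCAT1#1, and their sum, mostly VIM, was 5406 to 5591 CPM with shBCAT1#2, 7084 to 7486 CPM with shBCAT1#1 and 7097 to 7129 CPM with shControl. Cholinergic markers summed to 11.7 to 11.8 CPM with shBCAT1#2, 39.8 to 40.6 CPM with shBCAT1#1 and 31.5 to 36.5 CPM with shControl. Nearly all of this came from SLC18A3 and ACHE, while CHAT was at 0 to 0.232 CPM. ACHE had 4.83 and 4.55 CPM with shBCAT1#2, 2.86 and 3.91 CPM with shBCAT1#1, and 7.17 and 5.97 CPM with shControl. Both of the 2 tested cholinergic markers fell with shBCAT1#2, and 1 rose and 1 fell with shBCAT1#1. The part of these shifts in the catecholamine results was not tested.

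Markers of 5 other cell types were also measured. Schwann cell precursor markers summed to 2.45 to 2.70 CPM with shBCAT1#2, 1.82 to 2.58 CPM with shBCAT1#1 and 2.83 to 2.999 CPM with shControl, with SOX10 at 0 in every library. Adrenal cortex markers summed to 1.44 to 1.78 CPM with shBCAT1#2, 1.93 to 2.25 CPM with shBCAT1#1 and 4.16 to 4.34 CPM with shControl, with NR5A1 and MC2R at 0. Blood markers summed to 14.4 to 18.1 CPM with shBCAT1#2, 29.1 to 33.7 CPM with shBCAT1#1 and 34.4 to 37.7 CPM with shControl, nearly all from CD68, which shares 81.7% of its exons with a same-strand gene, while CD3E was at 0. With shControl this sum, nearly all CD68, lay above TH, GCH1 and SLC6A2 in CPM, while PTPRC was at 0.370 and 0.324 CPM. Serotonergic markers summed to 0.719 to 1.11 CPM with shBCAT1#2, 1.20 to 2.19 CPM with shBCAT1#1 and 0.973 to 1.27 CPM with shControl. Endothelial markers summed to 6.14 to 7.09 CPM with shBCAT1#2, 6.53 to 7.43 CPM with shBCAT1#1 and 6.96 to 7.08 CPM with shControl. Of the tested genes in these 5 lists, with shBCAT1#2 1 of 3 Schwann, 1 of 2 adrenal cortex and 1 of 2 blood markers fell, and with shBCAT1#1 2 Schwann markers and 1 adrenal cortex marker fell.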

How the data were processed

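Total RNA of SK-N-BE(2) cells was sequenced in 6 libraries, 2 for each of 3 hairpins. The submitters' processing notes name HISAT2 2.2.0, StringTie and hg38. Annotation release, strand and counting options were not given in the sources used here. Raw counts (whole numbers) were deposited by the authors for each Ensembl gene, and every column of their table was used. Symbols came from a table that held 56105 of the 64252 IDs, and coordinates, lengths and GC from GENCODE 29. The genes and lists were chosen with earlier results of these data known.

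The test was edgeR 4.0.16 under R 4.3.3. After filterByExpr (minimum count 10) and TMM scaling, counts were fitted with glmQLFit and glmQLFTest, with a term per group and 1 estimate of the spread for all 6 libraries. The difference between the hairpins was a contrast of the same fit. Each group had n = 2 libraries, and the standard errors come from this fit, with its spread estimated over all 6 libraries. Nothing in the labels gives a batch or states that a group's libraries are separate cultures, and the p-values cover the spread of these libraries alone, which may be technical. Within groups log2 CPM correlated at 0.988 to 0.989 across genes, and replicates differed by more than sampling noise (mean chi-square per gene 5.73 to 8.23, where 1 is sampling noise), so all were kept as separate libraries.

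All 10 genes and BCAT1 were named, and from each other list the 3 tested genes with the smallest p over both hairpins; some genes that this rule names are not reported here, and the promoter window of 1 gene was not analysed here. The most similar genes needed a mean CPM of at least 5. Alternatives were RLE size factors, no low-count filter, a replicate block, limma-voom (limma 3.58.1), DESeq2 1.42.0, a filter at 1 CPM, only the groups compared, a fold of at least 1.5 (glmTreat), each library left out, and a spline correction (4 df) of each library for GC content and exonic length over 13907 protein-coding genes, with and without the block.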

Additional observations from a re-analysis of the deposited data

Results flagged for a closer look

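The log2 difference of shBCAT1#2 against shBCAT1#1 passed edgeR's quasi-likelihood test for 7 of the 10 catecholamine genes, all lower with shBCAT1#2, where 23.3% of all tested genes were lower. The storage and reuptake genes gave -2.08 for SLC6A2, -2.05 for CHGB, -1.51 for CHGA and -1.02 for SLC18A1. The synthesis genes gave -2.33 for DBH, -1.32 for GCH1 and -1.03 for TH. In each of them both shBCAT1#2 libraries lay below both shBCAT1#1 libraries. The adjusted p ran from 2.0e-07 for CHGB to 0.0073 for SLC18A1. Groups of 2 libraries are too small to test for a sample that stands apart.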

How the results depend on the processing

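RLE size factors, DESeq2 and limma-voom left all 10 genes on the same side of the threshold in all 4 comparisons. Asking for a fold of at least 1.5 gave 1397 genes called with shBCAT1#2, 1769 with shBCAT1#1, 1774 between the hairpins and 1039 for both hairpins, where the test without it called 9236 with shBCAT1#2, 9199 with shBCAT1#1, 8650 between the hairpins and 9361 for both. Of the 10 genes it then called 3 lower with shBCAT1#2, 0 lower with shBCAT1#1, and 1 higher and 1 lower for both hairpins. The GC and length correction gave 1 lower with shBCAT1#1, with or without the replicate block. Without the block, it called 7910 of 13907 genes with shBCAT1#1 in either direction. With that correction TH for both hairpins was 0.25 (0.25 with the block), DBH for both 0.14 (0.14), MAOA for both -0.0216 (-0.0216), MAOA with shBCAT1#2 -0.0697 (-0.0697) and CHGA with shBCAT1#1 0.0105 (0.0151), each of the opposite sign to the value without it; the cause was not tested. Leaving out 1 library, where the lone library of a group is assumed to vary like the others, gave 1 to 2 genes lower with shBCAT1#1. The log2 fold change then ran from -0.24 to 0.42 for SLC18A1 and from -0.0140 to 0.0342 for MAOA with shBCAT1#2, from -0.84 to 0.35 for SLC18A2 with shBCAT1#1, and from -0.76 to 0.42 for SLC18A2 between the hairpins. GCH1 for both hairpins passed with the CPM filter (0.16, adjusted p = 0.046). Replicate numbers did not pair the libraries: deviations of same-numbered libraries correlated at -0.04 (shBCAT1#2 and shControl), 0.00 (shBCAT1#1 and shControl) and -0.03 (between the hairpins). The replicate block gave 8841 genes called with shBCAT1#2, 8802 with shBCAT1#1, 8218 between the hairpins and 9000 for both. With the block SLC18A1 for both hairpins had 0.63 (adjusted p = 0.052), and with no low-count filter it had 0.63 (adjusted p = 0.076). Depth limits SLC18A2, at 14 to 38 counts per library.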
